A study of Sus scrofa with 79 samples.

Results

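The chemokines described here were 9 inflammatory ligand genes of the pig: CXCL8, CXCL2, AMCF-II and CXCL10 of the CXC family and CCL2, CCL8, CCL3L1, CCL4 and CCL5 of the CC family. They were taken by name, through the RefSeq accession that the array gives for each probe, and all 9 were found, on 13 of the 43603 probes, among 36787 genes or accessions in all. CCL2, CCL5, CXCL2 and CXCL10 had 2 probes each and the other genes 1. In the pig annotation the CXC genes lie on one chromosome and the CC genes on another.

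The study asked what an antibiotic given soon after birth, with or without stressful handling, does to the gut of piglets that stay with their sow. T1 piglets were left undisturbed until blood was drawn at day 8, T2 piglets were injected under the skin of the neck with tulathromycin, a macrolide antibiotic, at day 4, and T3 piglets were given that injection together with docking, clipping and weighing. RNA of jejunum and ileum (day 8, 55 and 176) and of whole blood (day 8) was hybridised to 79 one-colour arrays, 67 of gut and 12 of blood. Each array held a pool of 4 piglets, with 3 or 4 pools in each group of tissue, day and treatment, and the litters were TOPIGS20 sows' on 1 farm. At day 8 a pool gave both gut tissues, so its jejunum and ileum arrays came from the same animals. At that age the pools of different treatments were also filled from the same sows. No group was given the handling without the antibiotic. Values are quantile-normalized log2 intensities, which can be compared for a gene between arrays but not between genes. A gene was called where limma gave a Benjamini-Hochberg adjusted p under 0.05 over all genes of the fit together with a fold change above 1.5. Where a treatment or age difference was itself compared between tissues or ages (interaction terms), the adjusted p alone decided, with no fold limit. The shares of all genes called for such terms are thus not on the same footing as the other shares.

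Chemokines are small secreted proteins that draw leukocytes along a gradient through receptors on those cells. Epithelial cells, macrophages and vessel cells make most of the inflammatory ones after microbial products, interleukin 1, tumour necrosis factor or interferon reach them. The CXC members CXCL8, CXCL2 and AMCF-II (a pig chemokine first found in alveolar macrophage cultures) draw mainly neutrophils, and CXCL10 is an interferon-induced ligand that draws activated T cells. CCL2 and CCL8 draw mainly monocytes, whereas CCL3L1, CCL4 and CCL5 act on T cells and macrophages, and T cells themselves make much CCL5. In tissue RNA of this kind, fewer cells of a type and less RNA per cell cannot be told apart.

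The labels were first set against markers of the tissues, which showed a limit for day 8. FABP6, the bile acid carrier of the ileal epithelium, differed by 10.3 log2 units between the jejunum arrays of day 8 and by 10.9 between the ileum arrays, but by at most 1.58 between the jejunum and ileum arrays of a pool. Both tissues of a pool were thus high or low in FABP6 together. At day 8, 3.47% of all genes tested were called between ileum and jejunum, against 41.5% at day 55 and 27.1% at day 176. FABP6 was 17.8 to 18.7 in every ileum array of the later days, with the jejunum arrays between 12.1 and 18.5 apart from pool 8 of T2 at day 176, at 7.52. Its jejunal medians, 17.9 at day 55 and 18.1 at day 176, were close to the ileal 18.1 and 18.5, so FABP6 alone did not separate the labels then. FABP2, another epithelial gene, did, with medians of 16.4 and 16.6 in jejunum against 14.1 and 13.8 in ileum. At day 8 its median was 16.2 in both tissues. The day 8 tissues are therefore named below as labelled, and values of both are given side by side and not as independent evidence. Mean FABP6 at day 8 was also lower in T2 than in the other groups, at 7.28 in jejunum and 7.03 in ileum, against 12.5 and 12.7 in T1 and 13.1 and 13.3 in T3. Its part in the treatment differences below was not tested. Pool 12 of T1, the pool with the highest values of most chemokines, had a FABP6 level of only 6.81 and 6.26.

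**Figure D1:**
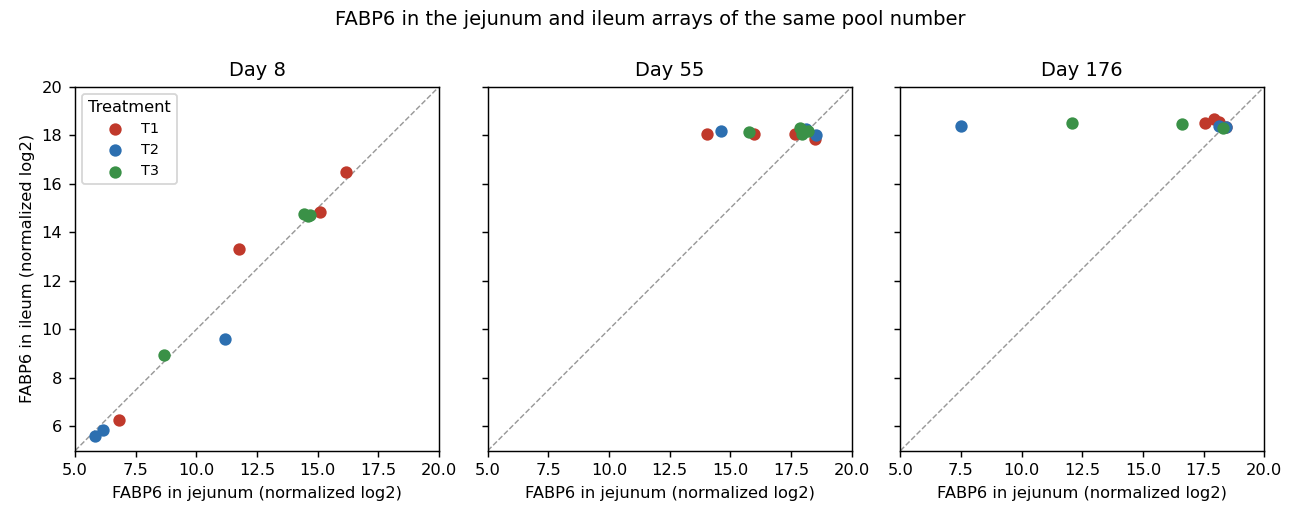
FABP6 (normalized log2 intensity) in the ileum array (vertical axis) against the jejunum array (horizontal axis) of the same pool number, with 1 point per pool, coloured by treatment, and the dashed line marking equal values. At day 8 the points follow the line over 10.3 units, whereas at days 55 and 176 the ileum values are all between 17.8 and 18.7.

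Depth of an array is the share of its spots well above background, which was 34.8 to 44.1% in blood and 42.4 to 75.2% in gut. The jejunum array of pool 8 of T2 at day 176 stood apart, with a median correlation of 0.818 with the arrays of its tissue and day, the next lowest of the gut arrays being 0.927, and results that rest on it are given with and without it. Within ileum of day 8, the array of T1 pool 11 was the lowest, at 0.931 against 0.968 or more, with 59.0% of its spots well above background against 68.0 to 72.6%. The paper took a jejunum and an ileum sample of day 8 out at quality control, which its text does not name. All 12 jejunum arrays of day 8 were used here, and so also the jejunum sample that the paper left out. All 9 genes were well above background on nearly every gut array, through every probe except the second of CXCL2, which was so on 65 of 67. Each treatment group of a tissue and day lay on 1 slide, so that a slide held both groups of a comparison for only some of them.

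The blood arrays of day 8 gave fewer of the 9 genes. CCL5 was well above background on all 12 blood arrays, CXCL10 on 11, CCL4 on 9, CCL3L1 and CCL8 on 4 each and CXCL8 on 3. CCL2, CXCL2 and AMCF-II were not well above background on any of them. Normalized over all 79 arrays, gut CCL2 at day 8 was at least 36.2-fold (jejunum) and 37.1-fold (ileum) higher than in blood, AMCF-II at least 8.92-fold and 11.3-fold and CXCL2 at least 2.45-fold and 3.35-fold. CXCL8, well above background on only 3 blood arrays, exceeded its blood mean by 5.64 and 5.97 log2 units, and CXCL10 by 3.63 and 3.80. The excess was smaller for CCL8 (1.65 and 1.56), CCL3L1 (0.78 and 0.42) and CCL4 (0.38 and 0.19). CCL5 went the other way, with a gut level 0.28 (jejunum) and 0.72 (ileum) log2 units below blood. That direction rests on the shared normalization. With blood and gut normalized apart, on scales not matched to each other, mean CCL5 was 9.19 in blood, 12.8 in jejunum and 12.3 in ileum. These level differences between blood and gut were not tested, since the arrays differ in the share of spots detected.

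The comparison of the treatments at day 8 asked whether an antibiotic given on day 4 left a trace in the chemokines 4 days on. In ileum, AMCF-II fell 2.85-fold in T2 and CCL2 fell 2.43-fold in T2 and 2.00-fold in T3, each relative to T1. No other member was called in ileum and none in jejunum, although the neutrophil-attracting CXCL2 had the largest fold changes of the 9 against T1 in both tissues and both treatments. The difference of T2 from T1 was below 0 for all 9 members in both tissues, and that of T3 from T1 for 8 of 9 in each.

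CXCL2, a ligand of neutrophil receptors, was 7.86, 8.13, 10.31 and 10.05 in the ileum arrays of T1 pools 9 to 12, 6.46, 6.49 and 6.58 in T2 pools 5 to 7, and 8.12, 6.25, 6.65 and 6.89 in T3 pools 1 to 4. In jejunum the values were 7.65, 7.25, 8.87 and 9.84 in T1, 5.94, 6.30, 6.13 and 6.77 in T2 (pools 5 to 8) and 8.02, 6.32, 5.97 and 6.87 in T3. All T2 pools lay below all T1 pools in both tissues, and of the T3 pools only pool 1 reached into the T1 range. The ileal log2 fold change was -2.58 (SE 0.640, adjusted p = 0.0694) for T2 and -2.11 (SE 0.593, adjusted p = 0.0647) for T3, so neither was called. In jejunum it was -2.12 (SE 0.593, adjusted p = 0.211) for T2 and -1.61 (SE 0.593, adjusted p = 1.00) for T3. Both probes of CXCL2 gave values between -1.55 and -2.64 in these comparisons, and the second passed the threshold over probes in ileum of T3 (adjusted p = 0.0491) where the first did not (0.0771).

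AMCF-II had a narrow T1 group in ileum. Its ileal values were 10.23, 10.09, 10.05 and 10.09 in T1, 8.54, 8.51 and 8.76 in T2, and 9.62, 8.67, 9.15 and 9.03 in T3. Every treated pool was lower than every T1 pool, and T2 was the lowest group by its mean, 8.60 ± 0.134 (SD, n = 3) against 10.1 ± 0.0785 in T1 and 9.12 ± 0.393 in T3 (n = 4 each). The log2 fold change was -1.51 (SE 0.311, adjusted p = 0.0484) in T2 and -0.997 (SE 0.288, adjusted p = 0.0668) in T3. In jejunum the T1 pools read 9.38, 8.92, 9.48 and 10.36, the T2 pools 8.84, 8.58, 8.11 and 8.95, and the T3 pools 9.08, 8.64, 8.13 and 9.41. The jejunal groups overlapped, and T2 differed from T1 by -0.91 (SE 0.288, adjusted p = 0.311).

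CXCL8, the interleukin 8 gene, was 11.53, 11.70, 12.63 and 12.54 in ileum of T1, 11.03, 11.01 and 10.74 in T2, and 11.32, 10.72, 10.58 and 10.90 in T3. No treated pool reached the T1 range. The differences from T1 were -1.17 (SE 0.366, adjusted p = 0.113) in T2 and -1.22 (SE 0.339, adjusted p = 0.0630) in T3. In jejunum, T1 pools spanned 10.79 to 12.35, T2 pools 10.15 to 11.18 and T3 pools 10.07 to 10.95, and the fold changes were -0.91 and -0.96 with adjusted p values of 0.459 and 1.00.

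CCL2, the main attractant of monocytes, separated the groups in both tissues. The ileal values of T1 were 11.40, 11.50, 11.89 and 12.43, those of T2 10.71, 10.46 and 10.40, and those of T3 11.27, 10.60, 10.42 and 10.93. Jejunal values were 11.30, 11.44, 11.47 and 12.09 in T1, 10.74, 10.55, 10.38 and 11.06 in T2, and 11.29, 10.77, 10.63 and 11.02 in T3. Treated pools were below all T1 pools in each tissue, T3 pool 1 of jejunum only just so. In ileum the change was -1.28 (SE 0.265, adjusted p = 0.0484) for T2 and -0.999 (SE 0.245, adjusted p = 0.0484) for T3, and in jejunum -0.89 (SE 0.245, adjusted p = 0.199) and -0.65 (SE 0.245, adjusted p = 1.00). Of its 2 probes, both were lower in the treated groups, with log2 fold changes of -1.42 and -1.14 in ileum of T2, the second with an adjusted p over probes of 0.0591.

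CCL8, which also draws monocytes, was 8.57, 8.81, 9.71 and 10.52 in ileum of T1 and 8.38, 7.66 and 7.58 in T2, which did not overlap. T3 ranged from 8.09 to 8.70 and overlapped with T1. The log2 fold changes of -1.53 in T2 (SE 0.455, adjusted p = 0.102) and of -1.08 in T3 (SE 0.421, adjusted p = 0.129) missed the threshold. In jejunum they were -1.15 and -0.86. Pool 12 was the highest T1 pool in both tissues, and without its day 8 arrays the T2 values were -1.16 (adjusted p = 0.0543) in ileum and -0.74 (adjusted p = 0.592) in jejunum, and the ileal T3 value was -0.71 (adjusted p = 0.133).

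None of the T cell and macrophage attractants CCL4, CCL3L1 and CCL5 was called. CCL4 was 8.20, 9.31, 8.00 and 11.38 in ileum of T1 against 7.57, 7.27 and 7.62 in T2 and 7.55 to 8.23 in T3, and the difference of T2 from T1 was -1.73 (SE 0.629, adjusted p = 0.158). Pool 12, at 11.38, carried much of that difference, which was -1.02 (adjusted p = 0.102) without the day 8 arrays of that pool. CCL3L1 overlapped in every comparison of day 8, from 6.83 to 9.78 in ileum of T1, 6.62 to 8.13 in T2 and 6.67 to 8.03 in T3. In ileum CCL5 was the member least apart, with ranges of 11.38 to 13.21 in T1, 12.04 to 12.39 in T2 and 12.25 to 12.69 in T3 and differences from T1 of -0.12 in T2 (SE 0.358, adjusted p = 0.884) and 0.07 in T3 (SE 0.331, adjusted p = 0.905).

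CXCL10 is the interferon-induced ligand. Its ileal values were 12.14, 12.81, 13.18 and 14.37 in T1, 12.13, 11.36 and 11.66 in T2, and 13.20, 11.52, 13.62 and 12.89 in T3. The T2 pools were below T1 by a margin of 0.01, whereas 3 of the 4 T3 pools lay within the T1 range. T2 differed from T1 by -1.41 (SE 0.612, adjusted p = 0.221) and T3 by -0.32 (SE 0.567, adjusted p = 0.748) in ileum, and in jejunum the values were -0.93 (adjusted p = 0.824) and 0.04 (adjusted p = 1.00). The direct difference of T3 from T2, for which 0.0247% of all ileal genes were called, was 1.09 (SE 0.612, adjusted p = 0.656) in ileum and 0.97 (SE 0.567, adjusted p = 0.981) in jejunum.

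**Figure D2:**
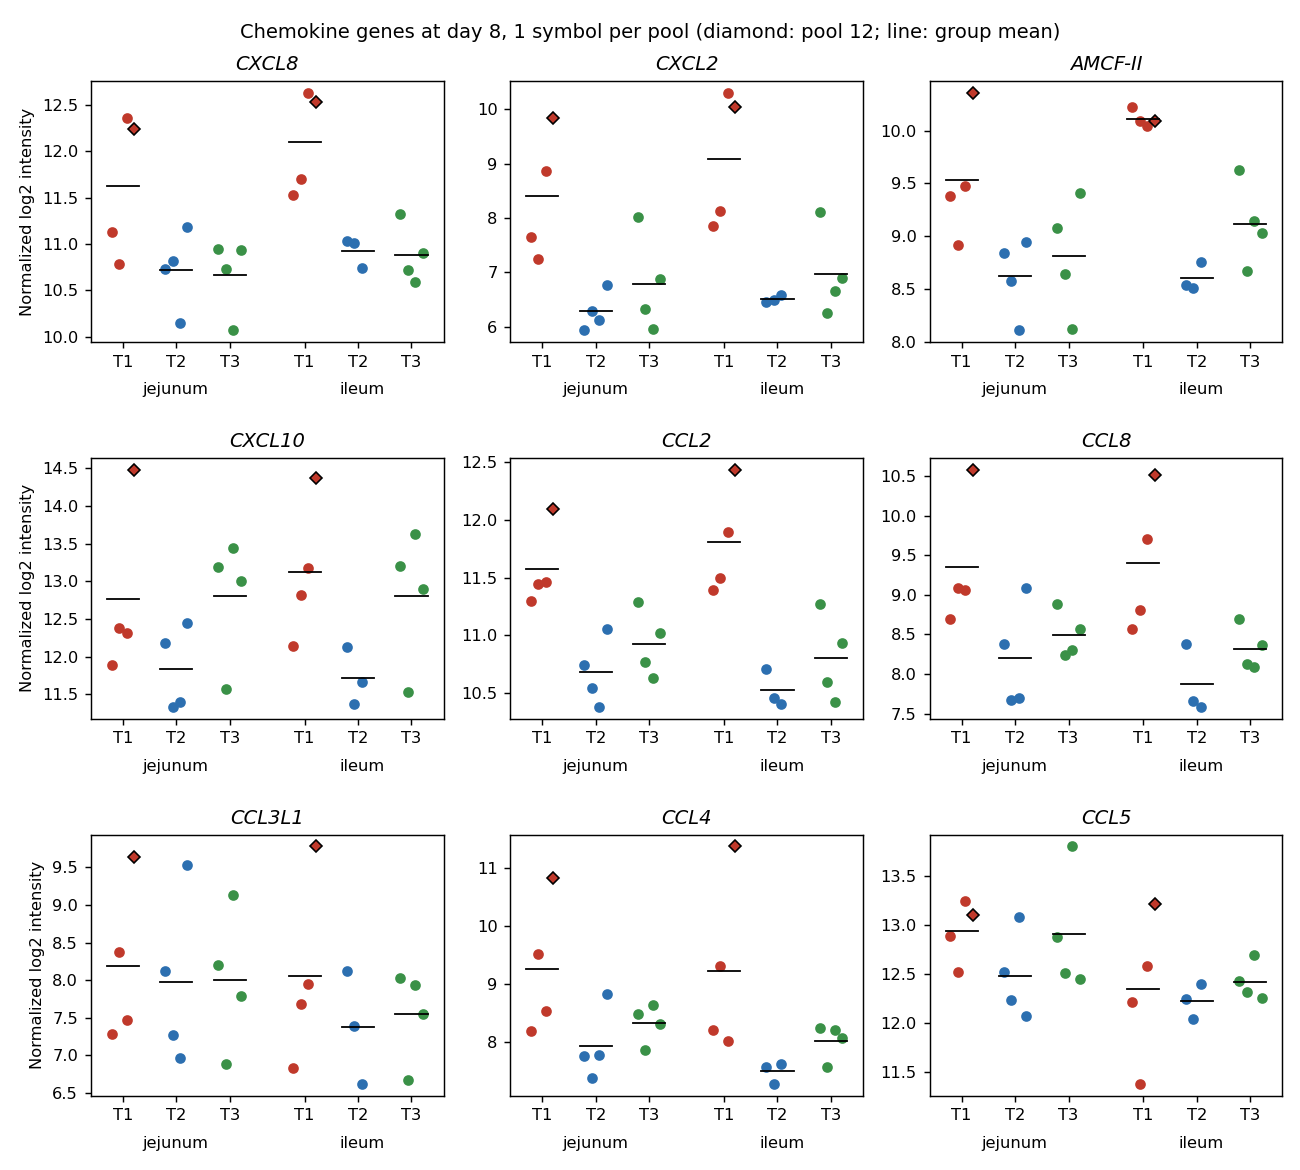
Normalized log2 intensity (vertical axes, scaled for each gene) of the 9 chemokine genes at day 8 in T1 (red), T2 (blue) and T3 (green), by labelled tissue, with 1 symbol per pool of 4 piglets, diamonds for pool 12 and lines for group means. In ileum the T2 symbols lie below all T1 symbols for 7 genes, and pool 12 is the highest symbol in 7 panels for jejunum and 6 for ileum.

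Counted over the 9 genes, 2 were called lower in ileum of T2, where 0.367% of all genes tested were called and 0.12% were lower, and 1 in ileum of T3, where 1.45% were called and 0.88% were lower. None was called in jejunum, where limma called 0.0177% of all genes in T2 and 0% in T3 and where 6 and 4 of the 9 had an unadjusted p under 0.05. Groups did not overlap for 7 members in ileum of T2 (CCL2, CCL4, CCL8, CXCL2, CXCL8, CXCL10 and AMCF-II), all lower, against 5.09% of all genes. In ileum of T3 they did not overlap for CCL2, CXCL8 and AMCF-II (4.55% of all genes), in jejunum of T2 for CCL2 and CXCL2 (2.73%) and in jejunum of T3 for CCL2 (1.94%). The median log2 fold change of the 9 was -1.41 in ileum and -0.91 in jejunum for T2, and -0.999 and -0.72 for T3, beside medians over all genes of 0.02, 0.04, -0.01 and -0.01. The share of all genes below 0 was 48.7, 44.0, 50.5 and 51.8%.

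The ileal calls lay close to the threshold. With each of the 23 gut arrays of day 8 left out in turn, the call of AMCF-II in T2 was lost for 16 arrays, that of CCL2 in T2 for 19 and that of CCL2 in T3 for 17, with adjusted p values of up to 0.197, 0.152 and 0.161, while the fold changes stayed within -1.59 to -1.46, -1.42 to -1.07 and -1.15 to -0.79. The arrays of the compared groups whose absence ended all the calls of their comparison were those of ileum T2 pools 5, 6 and 7 and of T1 pool 11 for T2, and those of T1 pool 11 and all 4 T3 pools for T3. T1 pool 11, the ileal array with fewest spots well above background, had the highest ileal values of CXCL2 and CXCL8. With ileum fitted without jejunum none of the 3 was called, with adjusted p values of 0.182, 0.244 and 0.166. The ileal T2 and T1 arrays lay on 1 slide, whereas T3 lay on a slide with jejunal T1, and in jejunum T1 lay apart from T2 and T3. Slide and treatment thus cannot be told apart for T3 in ileum or for either treatment in jejunum. Without pool 12 in both tissues the same fit made 7 calls over the 3 ileal comparisons in place of 3, CXCL2 among them in T2 (-2.26, adjusted p = 0.0384) and T3 (-1.79, adjusted p = 0.0417). With array weights CCL2 in ileum of T3 was at -0.68 (adjusted p = 0.112) and no longer called, and CXCL2 there was at -1.10 (adjusted p = 0.275).

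The treatment differences were also compared between the tissues. None of the 9 was called for a response to T2 or T3 at day 8 that differed between ileum and jejunum by limma's interaction term, where 0% and 0.0495% of all genes were, and no member had an unadjusted p under 0.05 there. The term was below 0 for 8 of 9 members in both treatments, with medians of -0.40 (T2) and -0.28 (T3), beside 0.01 and -0.01 over all genes. That fit took the jejunum and ileum arrays of a pool as separate samples, so the lack of a call does not show that the responses were alike. The difference between the ileum and jejunum arrays of a pool was at most 0.43 for CCL2, 0.55 for CCL4 and 0.65 for CCL8, where the pools of a tissue spanned 1.71 to 4.10. For the other members it reached 0.87 (CXCL10) to 1.43 (CXCL2). CCL5 and AMCF-II were less alike within a pool, with differences of up to 1.15 and 1.18 against pool ranges of 1.57 and 1.84 for CCL5 and 2.24 and 1.71 for AMCF-II in jejunum and ileum. Pool 12 of T1 was the highest pool for 7 of 9 members in jejunum and for 6 in ileum.

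**Figure D3:**
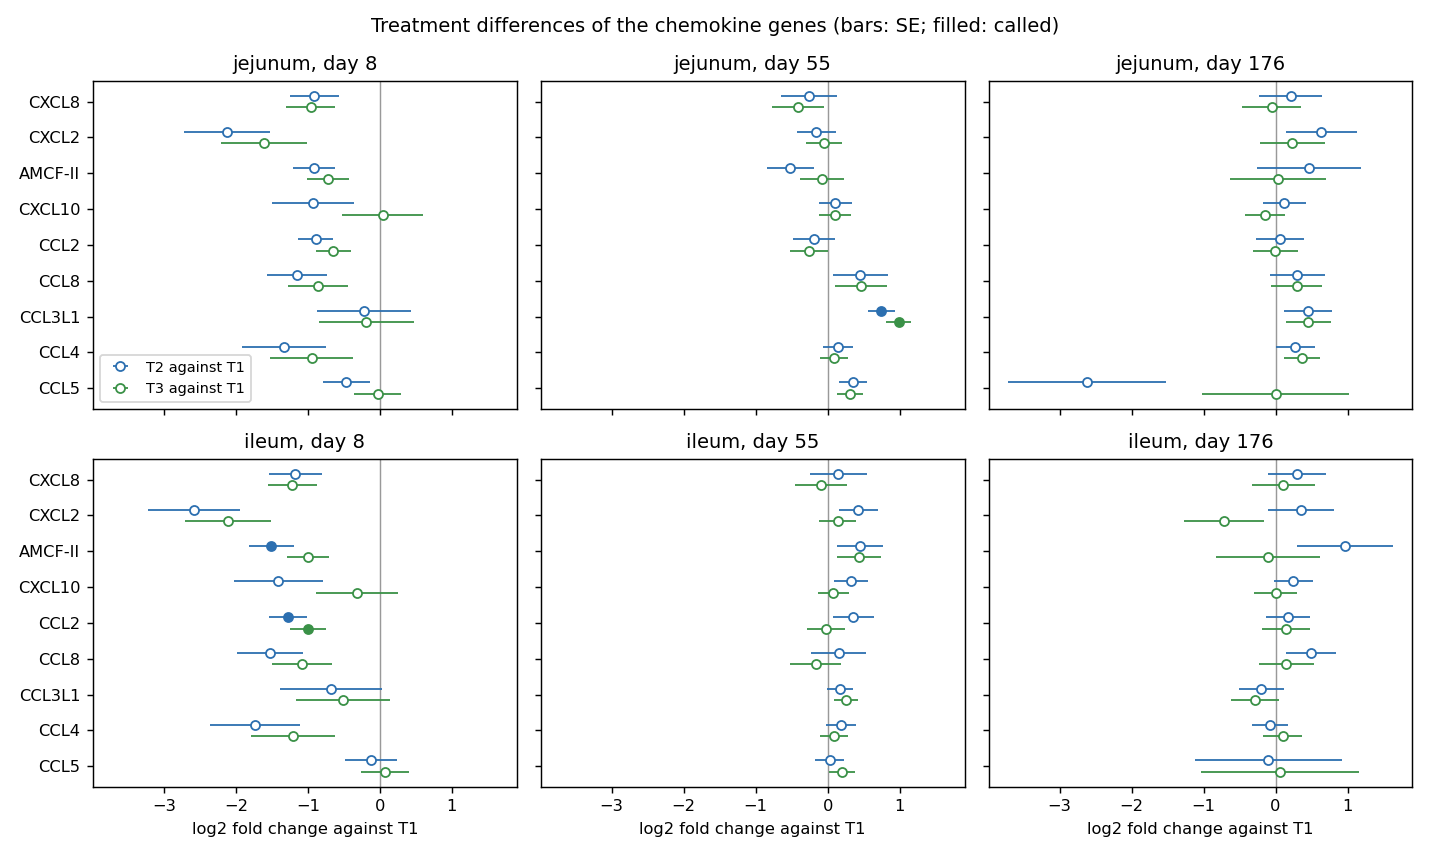
log2 fold change against T1 (horizontal axes) of the 9 chemokine genes for T2 (blue) and T3 (green) in jejunum (upper row) and ileum (lower row) at day 8, 55 and 176, with bars for the SE and filled symbols for calls. Most symbols lie left of 0 at day 8, from -2.58 to 0.07, and between -0.71 and 0.99 at the later days apart from CCL5 in jejunum of T2 at day 176 (-2.62), with CCL3L1 in jejunum of day 55 the only member filled there.

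Other genes of the system were read from lists. Of the chemokine receptors CCR1, CCR2 and CCR3, limma called none in T2 or T3 against T1 at day 8 in either gut tissue. In ileum, CCR2 in T2 (-0.60, adjusted p = 0.259) and CCR1 (-0.65, adjusted p = 0.1595) and CCR3 (-0.77, adjusted p = 0.176) in T3 had an unadjusted p under 0.05, and in jejunum none had. Of 7 other inflammatory chemokines (CCL24, CCL26, CXCL9, CXCL11, CXCL16, PPBP and XCL1) none was called, with 2 at an unadjusted p under 0.05 in ileum of T2 and none in the other gut comparisons. Their median in ileum was -0.38 in T2 and -0.61 in T3.

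The 18 inducers and regulators tested (cytokines, adhesion molecules and members of the NF-kappa B and interferon signalling paths) were all below 0 in jejunum of T2, with a median of -0.74, and 13 of 18 were in ileum, with a median of -0.77. None was called by limma in either treatment of either tissue, with 8 and 9 of 18 at an unadjusted p under 0.05 for T2 in jejunum and ileum and 5 and 11 for T3. Named here after their values were seen, the cytokines IL1B (-2.47, SE 0.570, adjusted p = 0.0581), IL6 (-2.31, SE 0.602, adjusted p = 0.0774) and IL1A (-1.40, SE 0.375, adjusted p = 0.0798) were below T1 in ileum of T2. Interleukin 1, the product of IL1A and IL1B, acts on epithelium and stroma, where it raises neutrophil-attracting chemokines. The part of these cytokines in the chemokine differences was not tested.

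The interferon response list was read in the same comparisons. In ileum of T3 its median was 1.53, and of 9 genes IFIT3 (1.66, SE 0.382, adjusted p = 0.0399), MX1 (1.73, SE 0.351, adjusted p = 0.0255) and OAS2 (1.64, SE 0.408, adjusted p = 0.0489), all antiviral genes, rose. In jejunum of T3 the median was 1.25 with no call and 7 of 9 at an unadjusted p under 0.05. In T2 the medians were -0.30 in jejunum and -0.01 in ileum, with no call and 0 and 1 of 9 at an unadjusted p under 0.05.

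Marker genes of leukocytes were read beside the chemokines. The mean level of the 5 neutrophil genes on the array (LTF, MMP9, S100A8, S100A9 and S100A12), centred on all gut arrays, was -0.28 to 1.38 over the ileal T1 pools, -0.65 to -0.16 in T2 and -1.05 to 0.29 in T3, and all 5 were below 0 in T2 against T1 in both tissues, with medians of -0.95 in jejunum and -1.44 in ileum, none called and none at an unadjusted p under 0.05. The 8 monocyte and macrophage genes were all below 0 in ileum of T2 and 7 of 8 in jejunum, none called and 0 and 3 at an unadjusted p under 0.05, with levels of -0.87 to -0.02 in T1, -1.18 to -0.90 in T2 and -0.98 to 0.03 in T3 in ileum. In ileum of T3, where CCL2 was called lower, 4 of these 8 genes were below 0, none called and none at an unadjusted p under 0.05. Of genes of B cells, CD79A differed from T1 by -2.52 (adjusted p = 0.297) in ileum of T2 and by 1.17 (adjusted p = 0.554) in T3, and CD40 by -1.38 (adjusted p = 0.110) and -0.46 (adjusted p = 0.460), with CD40 in T2 at an unadjusted p under 0.05. The mean of the 10 T cell genes was -1.49 to -1.02 in ileal T1 and -1.74 to -1.59 in T2, and the lowest ileal pool, at -1.80, was in T3. The part of these cell types in the chemokine differences was not tested.

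Over all 23 gut arrays of day 8 the members correlated unequally, given here as a description across arrays that share pools and treatments. The mean of each tissue and treatment group was first taken off, so differences between those groups do not enter. CCL2 with CCL8 (Pearson r = 0.924), CCL3L1 with CXCL10 (0.887) and CXCL2 with CXCL8 (0.859) were the closest of the 36 pairs. CCL5 with AMCF-II was the most distant, at -0.23 at day 8.

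In blood at day 8, none of the 7 members tested was called in T2 or T3, where limma called 0.00693% and 0.00347% of all genes and 1 and 2 members had an unadjusted p under 0.05. CXCL2 and AMCF-II were too dim to be tested, and CCL2 was tested although no blood array had it well above background. CXCL10 was 3.31, 3.32, 3.53 and 5.62 in T1 (pools 9 to 12), 4.48, 4.28, 4.51 and 6.18 in T2 and 6.25, 5.82, 4.97 and 5.41 in T3. T3 was high and T1 low apart from pool 12, which reached into the T3 range. The difference of T3 from T1 was 1.67 (SE 0.566, adjusted p = 0.510), and it was 2.22 with an adjusted p of 0.0358 when T1 pool 12 was left out. With normexp background correction it was 0.39 (adjusted p = 0.538). The 9 interferon genes in blood were all above 0 in T3, with a median of 0.96 and none called, 4 of them at an unadjusted p under 0.05. CCL8 differed by 1.46 (SE 0.584, adjusted p = 0.621) in T3, or by 0.20 with normexp, and was well above background on only 4 of the 12 blood arrays. T1 blood lay on another slide than T2 and T3, so slide and treatment cannot be told apart in blood.

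At day 55 the treatments differed in 1 member, CCL3L1 of jejunum. In ileum, none of the 9 was called in T2 or T3 by limma and none had an unadjusted p under 0.05, while 0.0858% and 15.8% of all genes were called. The T3 ileum arrays of this day lay on a slide of their own with 42.4 to 52.0% of spots well above background, against 62.6 to 73.1% in T1 and T2. For the change of the treatment difference from day 8 to day 55, CXCL2 in ileum of T3 was the only member called: -2.11 at day 8 and 0.14 at day 55, a difference of 2.25 (adjusted p = 0.0334, with 5.88% of all genes called). That call was lost when any 1 of 9 arrays was left out: ileum of T3 pools 2, 3 and 4 and T1 pools 11 and 12 of day 8, and T3 pools 2 and 3 and T1 pools 9 and 10 of day 55, with adjusted p values of 0.0505 to 0.114. With array weights the value was 1.31 (adjusted p = 0.307). None was called for T2 in ileum or for either treatment in jejunum over the same span, where 0.0156% (T2, ileum), 0.191% (T2, jejunum) and 1.17% (T3, jejunum) of all genes were called, nor for T3 against T2, where 0.00625% (jejunum) and 2.24% (ileum) were.

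In jejunum at day 55, CCL3L1 rose by 0.75 (SE 0.183, adjusted p = 0.0292) in T2 and by 0.99 (SE 0.169, adjusted p = 7.59e-04) in T3. Its values were 8.89, 8.45, 8.65 and 8.69 in T1, 9.73, 9.43 and 9.09 in T2 (pools 5 to 7) and 9.59, 9.86, 9.62 and 9.56 in T3. Every treated pool was above every T1 pool, as for 9.44% (T2) and 10.5% (T3) of all genes, shares close to the 1 member of 9. Against T2, T3 gave no call in either tissue, where 1.7% (jejunum) and 9.36% (ileum) of all genes were called, with no member at an unadjusted p under 0.05. The ileal values of the same day, 7.64 to 8.24 in T1, 8.06 to 8.34 in T2 and 7.99 to 8.50 in T3, overlapped, with differences of 0.17 and 0.26. The difference between the tissues in these responses was not called, at -0.57 (adjusted p = 0.507) for T2 and -0.73 (adjusted p = 0.0718) for T3, where 0.231% and 6.91% of all genes were called. CCL3L1 was 1 of 9 members called in each comparison, and 3.16% (T2) and 11.7% (T3) of all genes were called there, so that for T3 the share among the members was close to that of all genes.

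The call of CCL3L1 in T3 held in all 22 fits with 1 array of that day left out, with adjusted p values up to 0.00371, but T3 and T1 lay on different slides. T2 and T1 shared a slide, and the T2 call was lost in 5 of the 22 fits, those without T2 pools 5 or 6 or without T1 pools 10, 11 or 12, with adjusted p values of 0.0520 to 0.205. Over all 67 gut arrays in 1 fit neither was called (adjusted p = 0.623 for T2 and 0.171 for T3). With 1 treatment effect for both tissues the T2 value was 0.46 (adjusted p = 0.151).

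Of the 19 inducers and regulators on the array, IRF3, MYD88, NFKB1 and RELA, parts of the signalling paths from microbial sensors, rose in jejunum of day 55. They rose by 0.80, 1.88, 0.96 and 1.35 in T2 and by 0.86, 2.54, 1.25 and 1.98 in T3. Of all 30296 genes tested, 958 (T2) and 3557 (T3) were called in these comparisons. IL1B, the cytokine with a large difference at day 8, was at 0.49 (adjusted p = 0.609) in T2. Of the 10 T cell genes, CD8A rose by 1.07 in T2, and CD2, CD247, CD3D, CD8A and LCK rose in T3, CD8A by 0.73. The mean level of the T cell list was 0.22 to 0.53 over the T1 pools, 0.48 to 1.09 in T2 and 0.749 to 1.203 in T3. Its part in the CCL3L1 difference was not tested.

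At day 176 no member was called for T2 or T3 in either tissue, where limma called 1.79% and 0% of all genes in jejunum and 0.00691% and 0% in ileum, with 1 of the 36 member tests, CCL5 in jejunum of T2, at an unadjusted p under 0.05. CCL5 was 15.25, 15.79, 15.34 and 15.33 in jejunum of T1, 15.40, 15.13 and 7.89 in T2 (pools 5, 6 and 8) and 15.94, 15.56, 15.54 and 14.67 in T3. The value of -2.62 (SE 1.10, adjusted p = 0.161) for T2 against T1 came from pool 8, the array that stood apart, and was -0.16 (adjusted p = 0.920) without it. T3 against T2 gave no call at this age, where 1.2% of all jejunal genes were called, and CCL5 of jejunum (2.62, adjusted p = 0.241) was the 1 member at an unadjusted p under 0.05. The pool 8 array was also low in CD3E, a T cell gene, at 8.17 against 11.8 to 13.6, and had the highest value of its tissue and day for 5 of the 9 chemokines. In ileum AMCF-II had the widest spread, 8.24 to 12.35 in T2 against 9.16 to 10.54 in T1, and differed by 0.97 (SE 0.668, adjusted p = 0.727).

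**Figure D4:**
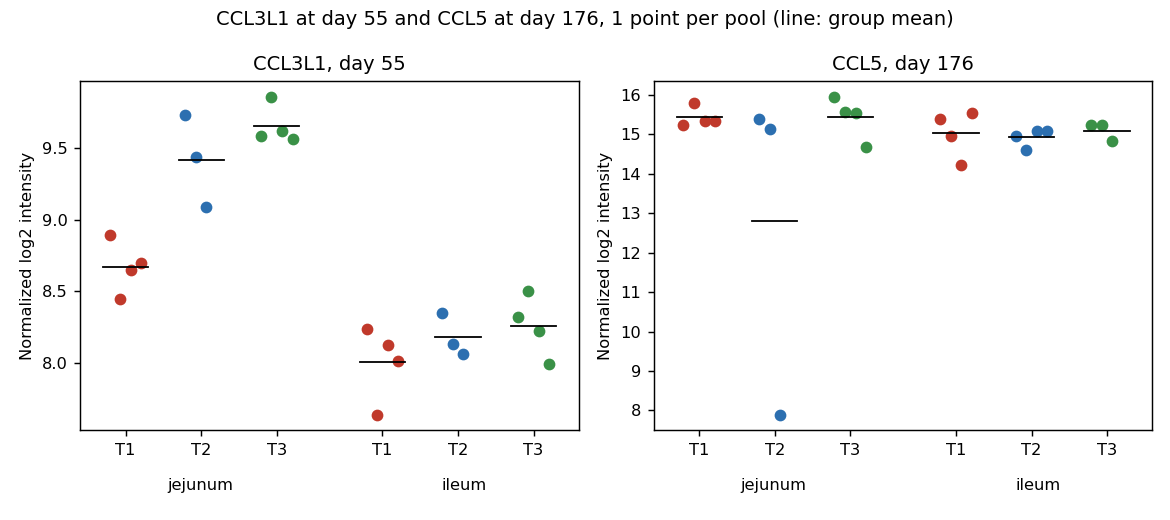
Normalized log2 intensity of CCL3L1 at day 55 (left) and of CCL5 at day 176 (right) in T1 (red), T2 (blue) and T3 (green) by tissue, 1 point per pool and a line for each group mean. All jejunal T2 and T3 points of CCL3L1, 9.09 to 9.86, lie above the T1 points, 8.45 to 8.89, and 1 jejunal T2 point of CCL5 lies at 7.89, with all others above 14.

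The 2 gut tissues were compared over the treatments of each day. At day 8 limma called none of the 9, and 1 (CCL5, -0.44, adjusted p = 0.148) had an unadjusted p under 0.05. At day 55, where 41.5% of all genes were called, ileum was higher than jejunum in CCL2 (0.63, adjusted p = 0.00292) and CXCL2 (0.65, adjusted p = 0.00143), and lower in CCL3L1 (-1.10, adjusted p = 5.99e-08), CCL4 (-0.80, adjusted p = 1.28e-05) and CXCL8 (-0.93, adjusted p = 0.00137). At day 176, where 27.1% were called, ileum was higher in AMCF-II (1.51, adjusted p = 0.00743), CXCL2 (1.35, adjusted p = 0.00150), CCL2 (1.32, adjusted p = 2.48e-05) and CXCL10 (1.02, adjusted p = 1.07e-04). CCL2 and CXCL2 were thus higher in ileum on both later days. The call of CCL2 at day 55 fell under the fold limit without jejunum T3 pool 2, T2 pool 7 or T1 pool 10, at 0.58, 0.54 and 0.54, and was 0.39 with each array scaled to its 75th percentile. That of CXCL2 at day 55 was 0.39, under the same limit, with normexp background correction. With slide as a random block in limma the call of CCL2 at day 55 was lost (0.60, adjusted p = 0.0628). CXCL2 had no value on the ileum array of T3 pool 2 of day 176, so that n was 10 there. At day 55 jejunum and ileum shared no slide and were scanned in different batches, so slide, scan batch and tissue cannot be told apart on that day.

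The other genes of the system differed between the tissues in the same days. At day 176, where 12.9% of all genes were higher in ileum, 11 of 18 inducers and regulators were, among them IL1A, IL1B, IL6 and TNF. Another of the 11, IL17A, was well above background on only 5 of the 34 jejunum arrays. Of the 7 other inflammatory chemokines, CXCL9 and CXCL11, which resemble CXCL10, were higher and CCL24 and XCL1 lower, and of the 5 neutrophil genes S100A8 and S100A12 were higher. At day 55, 6 of 17 inducers were higher in ileum and 4 lower, beside 20.8% and 20.7% of all genes. The B cell genes CD79A and CD40 were higher in ileum on both days, CD79A by 3.92 and 4.86 and CD40 by 2.27 and 2.14 at days 55 and 176, and their part in the chemokine differences was not tested.

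CCL4 and CCL5 had the largest changes of the 9 between days 8 and 55 in jejunum. CCL4 rose from day 8 to day 55 by 2.35 (SE 0.237, adjusted p = 3.53e-12) in jejunum and 1.81 (SE 0.243, adjusted p = 6.50e-09) in ileum, while CCL5 rose by 2.39 (SE 0.386, adjusted p = 7.44e-07) in jejunum and by 2.28 (SE 0.396, adjusted p = 2.09e-06) in ileum. The mean CCL4 level went from 8.50 ± 0.93 (SD, n = 12) in jejunum and 8.31 ± 1.15 (n = 11) in ileum at day 8 to 10.8 ± 0.27 and 10.0 ± 0.20 at day 55 and 10.8 ± 0.38 and 10.4 ± 0.26 at day 176 (n = 11 each). CXCL10 rose by 1.82 and 1.81 to day 55 in jejunum and ileum, CCL8 by 1.35 and 1.37, CCL3L1 by 1.19 in jejunum and CCL2 by 0.82 in ileum. The neutrophil attractants CXCL2 and AMCF-II were not called between these days in either tissue, with values of -0.56 to 0.30, and CXCL8 fell by 0.97 in ileum. In all, 5 members rose in jejunum and 5 rose and 1 fell in ileum, where 37.0% and 47.4% of all genes were called and 18.1% and 24.4% of all genes were higher.

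From day 55 to day 176, 3 of 9 members were called in jejunum and 2 in ileum, shares close to those over all genes. In jejunum CCL2, CCL8 and CXCL10 fell, by 0.72 (adjusted p = 3.54e-04), 0.74 (adjusted p = 0.00848) and 0.97 (adjusted p = 9.10e-04), where 36.9% of all genes were called. With slide as a random block in limma the jejunal call of CCL8 was lost (-0.71, adjusted p = 0.0933). In ileum none fell, and CXCL8 rose by 1.02 (adjusted p = 3.67e-04) and AMCF-II by 1.31 (adjusted p = 2.08e-04), where 28.5% were called. The difference between the tissues in this step was called for CCL2 (0.69), CXCL8 (0.89), CXCL10 (0.94) and AMCF-II (1.51), against 33.8% of all genes. Each of the steps to and from day 55 set other scan batches against each other in jejunum than in ileum, so the difference between the tissues in these steps and that between batches cannot be told apart. For CCL2 and CXCL8 among the 9, the change from day 8 to day 55 also differed between the tissues, by 0.64 and -1.23 (38.2% of all genes). The calls of CCL2, CXCL8 and CXCL10 for the step from day 55 to day 176 were lost without single arrays: jejunum of T2 pool 5 of day 55 for CCL2 (0.58, adjusted p = 0.0527) and CXCL10 (0.84, adjusted p = 0.0599) and ileum of T2 pool 6 of day 176 for CXCL8 (0.75, adjusted p = 0.0567). The call of CXCL10 was also lost without jejunum of T2 pool 5 of day 176 (0.86, adjusted p = 0.0511), and that of CXCL8 without ileum of T2 pool 5 or T1 pool 9 of day 55 or of T3 pool 2 of day 176, with adjusted p values of 0.0501 to 0.0670. That of CCL2 for the step from day 8 to day 55 was lost without jejunum of T2 pool 7 of day 55 (0.56, adjusted p = 0.0567), and the value was 0.34 (adjusted p = 0.230) with each array scaled to its 75th percentile.

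Over the whole span from day 8 to day 176, 7 of 9 members rose in ileum (48.6% of all genes called, 26.1% higher), CXCL2 by 1.01 and AMCF-II by 0.76 among them, with CXCL8 at 0.05 (adjusted p = 0.869) and CCL3L1 at 0.60 (adjusted p = 0.0594). In jejunum 5 rose (48.9% called, 26.8% higher): CCL4 by 2.25, CCL5 by 1.78 (2.60 without the jejunum array that stood apart), CXCL10 by 0.85, CCL3L1 by 0.62 and CCL8 by 0.61. Without pool 8 of T2 at day 176 the jejunal values of CCL3L1 and CCL8 were 0.46 (adjusted p = 0.148) and 0.52 (adjusted p = 0.0569) and no longer called, and CCL3L1 lost its call without any of 11 jejunum arrays: T3 pools 2 and 4, T2 pools 6 and 7 and T1 pools 9 and 11 of day 8, and T3 pools 1 and 4, T2 pool 8 and T1 pools 10 and 11 of day 176. CCL8 lost its call without any of 8, which were T2 pools 6 and 7 and T1 pools 9, 10 and 11 of day 8 and T3 pool 1, T2 pool 8 and T1 pool 12 of day 176, with values of 0.52 to 0.58. With normexp background correction the jejunal values were 0.34 for CCL3L1 and 0.47 for CCL8, and neither was called. With slide as a random block in limma they were 0.57 (adjusted p = 0.159) and 0.53 (adjusted p = 0.181), again without a call. The ileal call of AMCF-II was lost without T3 pool 2 (0.59, adjusted p = 0.0805) or T2 pool 6 (0.57, adjusted p = 0.0657) of day 176. That call was also lost with slide as a random block in limma (0.80, adjusted p = 0.0802). Gut arrays of different ages shared neither a slide nor a scan batch, so age and batch cannot be told apart. The SD between pools of CXCL10 was 0.93 and 0.95 in jejunum and ileum at day 8 and 0.26 to 0.38 later.

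**Figure D5:**
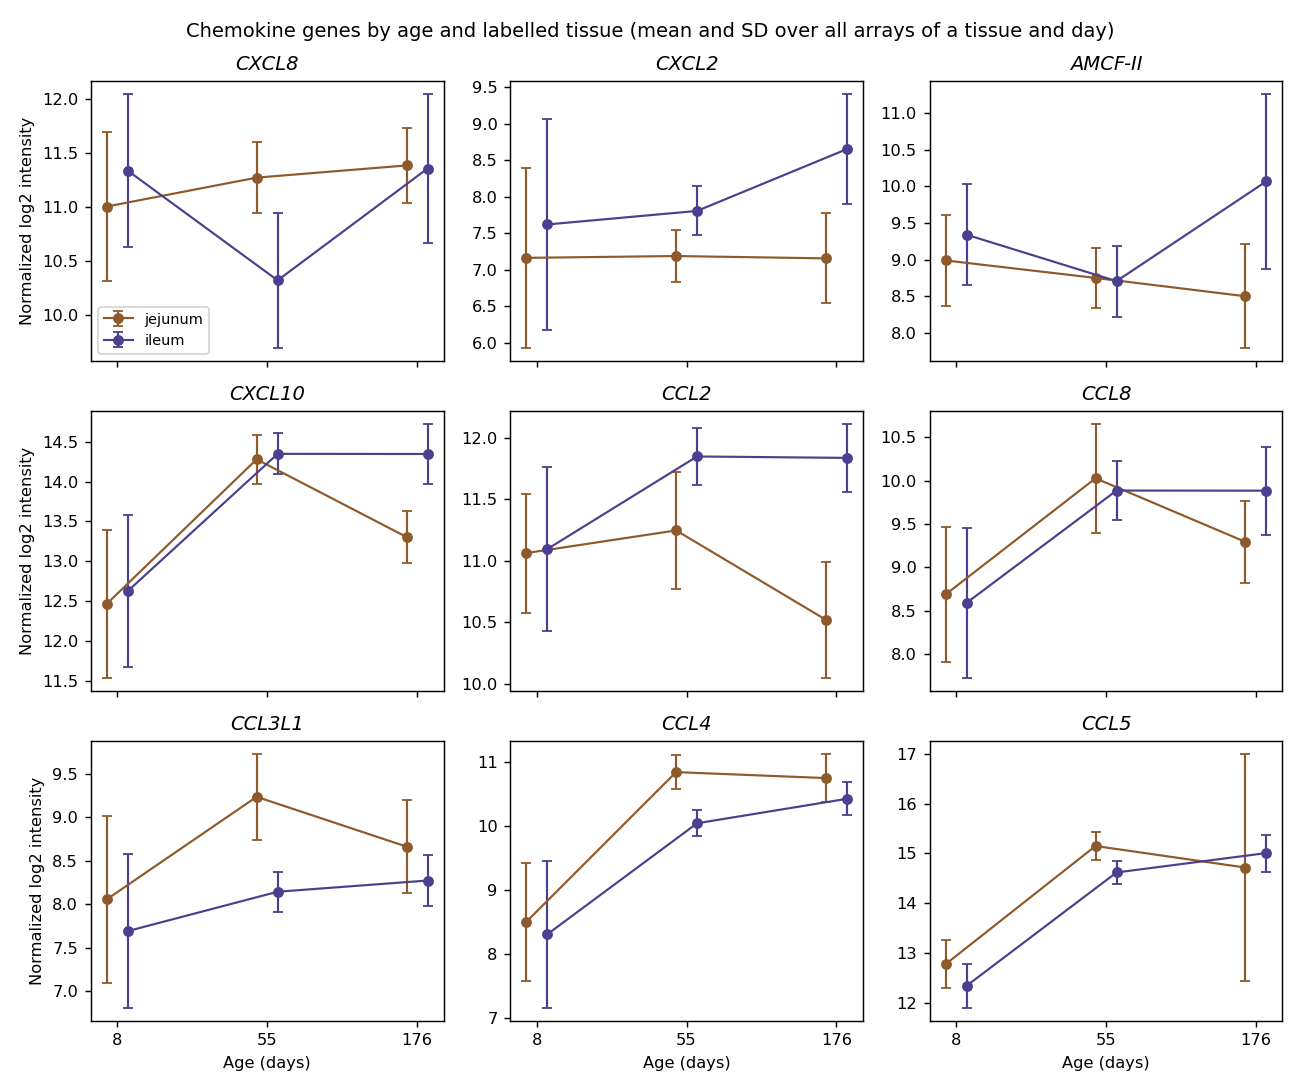
Mean normalized log2 intensity (vertical axes) of the 9 chemokine genes against age (days 8, 55 and 176, evenly spaced) in jejunum (brown) and ileum (violet), with bars for the SD over the 10 to 12 arrays of a tissue and day. CCL4, CCL5, CXCL8 in ileum and CXCL10 show the steps of -0.97 to 2.39 given in the text, and the long bar of CCL5 in jejunum at day 176 comes from the array at 7.89.

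As a description over the 67 gut arrays, which share pools, ages and slides, the genes most like each member were sought by Pearson correlation. From each value the mean of its tissue, day and treatment group was first taken off, so differences between ages, tissues and treatments do not enter. The search ran among 1879 named genes well above background on at least 75% of these arrays. CXCL10 was most like CXCL9 (r = 0.854) and CXCL11 (0.825), the other ligands of its receptor. CXCL2 was most like IL1B (0.738) and IL1A (0.694), and AMCF-II was most like the matrix metalloproteinase MMP1 (0.818). CCL5 was most like DGAT1 (0.944) and CLDN7 (0.937), but without the jejunum array of pool 8 of T2 at day 176 it was most like CD3E (0.821) and SLA-3 (0.649). For the others, ICAM2 (0.684) was nearest to CCL2, CXCL11 (0.727) to CCL3L1, TIMP1 (0.723) to CCL4, CXCL9 (0.688) to CCL8 and CCL28 (0.665) to CXCL8. Without that array CXCL2 was nearest to IL1A (0.796), ahead of IL1B (0.722), and CCL3L1 to PSMB9 (0.706).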

How the data were processed

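Gene expression was measured in pools of piglets on Agilent one-colour arrays. Per the file headers, the authors' scans were processed with Agilent Feature Extraction 10.7.3.1, and the deposited intensity values (background-corrected processed signals, not normalized between arrays) were used. A spot intensity under 1 was set to 1, log2 values were taken, spots marked as outliers and control spots were left out, and spots of a probe were averaged. Quantile normalization was run over the 67 gut arrays and apart over the 12 blood arrays. Probes at or above the 20th percentile on every array of at least 1 group were kept, and probes of one gene were averaged. Of 43603 probes, 12.5% had a symbol, through RefSeq accessions. The array's sequences were not used here, so cross-hybridization between related genes was not checked.

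limma 3.58.1 (lmFit, eBayes) in R 4.3.3 was fitted to the blood arrays, to the gut arrays of each day (6 groups) and, for ages, to all gut arrays (18 groups). Fits held 28310 to 31989 genes. Scripts were tested on simulated data. A bound ("at least") sets the gut mean against, per blood array, the lowest signal well above background or the dim probe's own. The number of arrays limits precision. All 9 members were counted in every comparison where they were tested, but not each is given there with its value. Listed genes were named in some of the comparisons where they were called. The members and lists were chosen with earlier results of these data known. Alternatives covered normalization, background correction, filters, probe summary, variance, array weights, arrays fitted, slide, the block on sow sets or pools, and each array left out. The deposited table of the authors' normalized values was not used here, and some listed genes are not reported here.

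At day 8 the pool numbers pair samples by source, since pools 1, 5 and 9, for example, came from the same 4 sows, and a pool gave both tissues. Deviations of same-set pools correlated by 0.143 in blood, 0.0997 in jejunum and 0.0854 in ileum at day 8 on average, and those of a pool between tissues by 0.197.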

Additional observations from a re-analysis of the deposited data

Results flagged for a closer look

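Of 117 groups of 4 pools, 4 had a pool far from the other 3 by Dixon's ratio, and chance marks about 1 in 20 groups. CCL2 was 10.69 in jejunum of T3 pool 2 at day 55 (others 11.2 to 11.3). CCL3L1 was 8.75 in ileum of T2 pool 6 at day 176 (others 8.00 to 8.08), CCL8 was 10.4 in ileum of T2 pool 5 at day 176 (others 10.1), and CXCL8 was 10.8 in jejunum of T1 pool 12 at day 176 (others 11.5 to 11.6).

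For 5 genes the change in 1 tissue, or at 1 age, differed from that in another by limma's interaction term. The change from day 55 to day 176 was greater in ileum than in jejunum by 0.69 for CCL2, 0.89 for CXCL8, 0.94 for CXCL10 and 1.51 for AMCF-II. From day 8 to day 176 it was greater by 1.33 for CCL2, 0.94 for CXCL10 and 1.22 for AMCF-II, where 23.3% of all genes differed. The CXCL10 call over that span was lost without any of 16 arrays, with adjusted p values up to 0.0703: in jejunum T3 pools 1 and 3, T2 pools 5 and 8 and T1 pool 12 of day 8 and T3 pool 3, T2 pool 5 and T1 pool 10 of day 176, and in ileum T3 pool 2, T2 pools 6 and 7 and T1 pools 9 and 10 of day 8 and T3 pool 4 and T2 pools 5 and 7 of day 176. From day 8 to day 55 the ileal change was greater by 0.64 for CCL2 and differed by -1.23 for CXCL8. The difference of T3 from T1 in ileum was higher at day 55 than at day 8 by 2.25 for CXCL2.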

How the results depend on the processing

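No result turned its direction. At day 8 the number of ileal calls (3 over the treatment comparisons) was 1 with each array scaled to its 75th percentile and with the brightest probe of each gene, 0 with no filter on dim probes, with ileum fitted alone and without jejunum T2 pool 8 and ileum T1 pool 11, 5 with all 67 gut arrays in 1 fit and with 1 treatment effect for both tissues, and 7 without pool 12. With 1 array left out it ran from 0 to 6. The jejunal number (0) was 3 with array weights, 5 with 1 effect for both tissues and 2 when that fit had slide as a block, in which T2 against T1 rests on the ileal slide alone. The 1-effect fit takes the jejunum and ileum arrays of a pool as separate samples, so its p-values are too small. Array weights gave 1 call between the tissues at day 8 in place of 0. At day 55 the jejunal number (2) was 1 with jejunum alone and with 1 effect for both tissues, 0 over all 67 arrays, and 1 to 2 with 1 array left out, and T2 against T1 alone gave 0 in place of 1 with 1 effect for both tissues and slide as a block; the ileal number (0) was 1 with 1 effect for both tissues, and 3 genes in place of 5 were called between tissues with normexp background correction (4 to 5 with 1 array left out). At day 176 the jejunal number (0) was 2 over all 67 arrays and 0 to 1 with 1 array left out, and calls between tissues were 4 to 5. The 13 age calls in jejunum ran from 11 to 14 and the 15 in ileum from 14 to 17 with 1 array left out. With slide as a random block, 5 of the 37 calls between tissues or ages were lost. They were CCL2 between tissues at day 55, CCL8 in jejunum from day 55 to day 176, and CCL3L1 and CCL8 in jejunum and AMCF-II in ileum from day 8 to day 176. The 9 calls of age changes that differed between tissues ran from 7 to 11, and were 5 without the 5 arrays with under 55% of spots well above background. The 1 call for a treatment difference that changed with age was 0 with quantile normalization by day, with only probes well above background and without pool 12, 2 others with array weights, where that of CXCL2 was lost, and 0 to 5 with 1 array left out. The CXCL10 difference between tissues from day 8 to day 176 was also not called with normexp background correction or with the brightest probe. Treatment differences that differed between tissues (0) gave 1 call at the 75th percentile scaling and 0 to 1 with 1 array left out, and blood (0) gave 0 to 1. The replicate block on sow sets, or on pools between tissues, changed no call of a named gene (72 of 72), with 0 calls in jejunum and 3 in ileum at day 8. The causes were not tested beyond what a setting's construction shows. The 5 gut arrays under 55% of spots well above background, ileum of T3 at day 55 and jejunum of T1 pool 9 at day 176 (46.9%), limit the values of those groups.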
